A study of Mus musculus with 12 samples.

Results

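The feedback and target genes of NF-κB described here were 10 genes, Nfkbia, Nfkbiz, Nfkbid, Tnfaip3, Nfkb1, Relb, Map3k14, Gadd45b, Icam1 and Ptgs2, picked by symbol from the 32285 genes of the table, and all 10 were found there. They were chosen with their levels in these samples known. They were measured by 5' single-cell RNA sequencing, with T cell receptor sequencing of the same cells, in T cells sorted from the brains of female mice of 9 months. The 6 pools of mice were 1 sample each. The PS-5X pool (4 mice) was hemizygous for both transgene sets, 5XFAD and PS19. The pools 5XFAD-1 (4 mice) and 5XFAD-2 (3 mice) were hemizygous for 5XFAD, which drives mutant human APP and presenilin in neurons and gives amyloid plaques. The PS19 pool (4 mice) was hemizygous for mutant human tau under the mouse prion promoter. The pools WT-1 (10 mice) and WT-2 (8 mice) were littermates with neither transgene. The 5XFAD line was C57BL6 congenic and the PS19 line B6C3F1/J. In what follows, amyloid pools are PS-5X, 5XFAD-1 and 5XFAD-2, and tau pools are PS-5X and PS19. With 1 pool each of PS-5X and PS19, no genotype of its own can be tested for those lines, and pooled mice give no spread between animals.

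NF-κB is a family of transcription factors that wait in the cytoplasm bound to IκB proteins. Signals from the T cell receptor, TNF family receptors and interleukin-1 type receptors lead to the loss of the IκB protein, and the freed dimers enter the nucleus. Among their targets are the genes for their own brakes: Nfkbia encodes IκBα, which takes the dimers back out, and Tnfaip3 encodes A20, a ubiquitin-editing enzyme that ends the signal at the receptor. Nfkbiz and Nfkbid encode IκBζ and IκBNS, atypical IκB proteins that act in the nucleus. Nfkb1 encodes p105, the precursor of the p50 subunit, and Relb a subunit of the alternative pathway, which the kinase NIK, product of Map3k14, sets off. Gadd45b, a stress-response gene that restrains JNK signalling, Icam1, an adhesion molecule bound by the integrin LFA-1, and Ptgs2, the inducible cyclooxygenase of prostaglandin synthesis, are targets outside the loop.

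The promoters were searched for letters that NF-κB is known to bind, since feedback of this kind runs through such sites. RefSeq starts (GRCm38.p6) were at hand for 7 of the 10 genes, 10 starts in all, and the 250 bases before each were searched on both strands for the κB consensus, the site that NF-κB dimers bind. It lay in 3 of the 10 windows, 1 each for 3 inhibitor genes, and in 7.25% of the 32851 mouse promoters of the same length. The 3 promoters with a match are shown from 5' to 3' on the strand of the gene, with the matches in capitals. That of Nfkbia is at chr12:55492648-55492897 on the minus strand, that of Tnfaip3 at chr10:19015411-19015660 on the minus strand (the upstream of 2 starts), and that of Nfkbid at chr7:30422156-30422405 on the plus strand (the second of 3 starts).
Nfkbia: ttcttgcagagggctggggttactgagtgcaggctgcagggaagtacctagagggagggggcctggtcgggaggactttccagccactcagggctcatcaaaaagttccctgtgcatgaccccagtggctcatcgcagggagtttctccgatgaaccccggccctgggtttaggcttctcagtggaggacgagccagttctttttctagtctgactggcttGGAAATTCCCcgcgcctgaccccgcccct
Tnfaip3: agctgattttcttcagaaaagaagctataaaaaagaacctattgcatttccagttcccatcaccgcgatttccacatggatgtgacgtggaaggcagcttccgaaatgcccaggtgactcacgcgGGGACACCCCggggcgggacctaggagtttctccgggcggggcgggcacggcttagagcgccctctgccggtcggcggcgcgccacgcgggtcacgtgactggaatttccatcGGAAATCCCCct
Nfkbid: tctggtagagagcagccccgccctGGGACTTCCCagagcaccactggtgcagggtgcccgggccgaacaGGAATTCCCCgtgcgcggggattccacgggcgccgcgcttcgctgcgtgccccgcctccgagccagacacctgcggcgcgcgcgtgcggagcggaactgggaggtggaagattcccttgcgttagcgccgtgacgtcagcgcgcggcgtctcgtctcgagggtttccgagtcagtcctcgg
The Nfkbia match lay 29 to 20 bases before the start. Tnfaip3 had matches 125 to 116 and 12 to 3 bases before its start, and Nfkbid 226 to 217 and 181 to 172 bases before. The windows of Icam1, Ptgs2, Gadd45b and Map3k14 held no match to these letters, which says nothing of sites elsewhere. These are matches of letters, not measured binding.

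Cells were put in 3 classes by lineage marker UMIs, transcripts counted once each: CD8 (Cd8b1 with Cd3 and no Cd4 or Trdc), CD4 (Cd4 with Cd3 and no Cd8a, Cd8b1 or Trdc) and γδ (Trdc and at least 2 Cd3 UMIs, no Cd8b1, Cd4 or αβ receptor contig). The CD8 class held 485 to 3984 cells a pool, the CD4 class 134 to 769 and the γδ class 33 to 227, WT-1 being the smallest pool in each. UMIs per class and pool ran from 3622246 to 25493271 for CD8, from 986569 to 4204418 for CD4 and from 245509 to 1347979 for γδ. Of the γδ class, 75.3%, 79.7% and 70.8% of cells in the amyloid pools PS-5X, 5XFAD-1 and 5XFAD-2, and 51.5%, 78.8% and 70.7% in PS19, WT-1 and WT-2, fell in a cluster led by Cd163l1, Tcrg-V6 and Il17a, genes of IL-17-producing γδ T cells. Defining neutrophil genes were near 0 in every class, and 12 microglia and macrophage genes summed to 36 to 61 UMIs per 1000000 UMIs of a sum (CPM) in the CD4, CD8 and γδ sums. In WT-1, 169 of 556 cells with both receptor chains (30.4%) carried a receptor found also in another pool, 58 receptors in common with 5XFAD-1 and 42 with PS19. In 5XFAD-1 the cells with such receptors were 546 of 1835 (29.8%). In PS19 they were 168 of 1723 (9.75%) and in PS-5X 177 of 4119 (4.30%). PS-5X had 6 receptors in common with PS19 and 2 with WT-1. All sharing lay among PS-5X, 5XFAD-1, PS19 and WT-1, the pools of the common sequencing run. In 5XFAD-2 and WT-2, which had a run of their own, 0 cells shared a receptor with another pool. Between 1 and 23 barcodes were common to a pair of pools, none with the same receptor. γδ cells have no αβ receptor, so this sharing could not be read in that class. What the sharing comes from was not tested, including whether cells or transcripts passed between pools, so WT-1 is used as labelled and its value as a control is uncertain.

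Most of the genes were higher in γδ and CD4 than in CD8 T cells, with Tnfaip3, Relb and Icam1 as exceptions in CD4 and Tnfaip3 in γδ. Levels are CPM of the class sum, folds are from edgeR with TMM scaling and the pool as block over 18 sums, and a call is an adjusted p under 0.05 over all 10972 genes tested. The genes were chosen with earlier results of these data known, so their p-values are not independent evidence. Ptgs2 entered this fit only through the γδ sums, where it is high, so it is left out of the counts and given by its UMIs. γδ cells had more of 8 of the other 9 than CD8 cells, against 21.1% of all genes called higher and 43.1% called in all. CD4 cells had more of 6 and less of 1 than CD8 cells, against 13.7% of all genes called higher, 12.1% lower and 25.8% in all. The median of the 9 lay at a log2 fold of 0.95 in γδ and 0.42 in CD4, with medians of -0.04 and -0.00 over all genes. TMM placed γδ 0.17 and CD4 0.09 lower against CD8, on the log2 scale, than library totals do. With library totals alone 69.5% of the γδ calls were higher in place of 49%, and 73.6% of the CD4 calls in place of 53%.

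**Figure D1:**
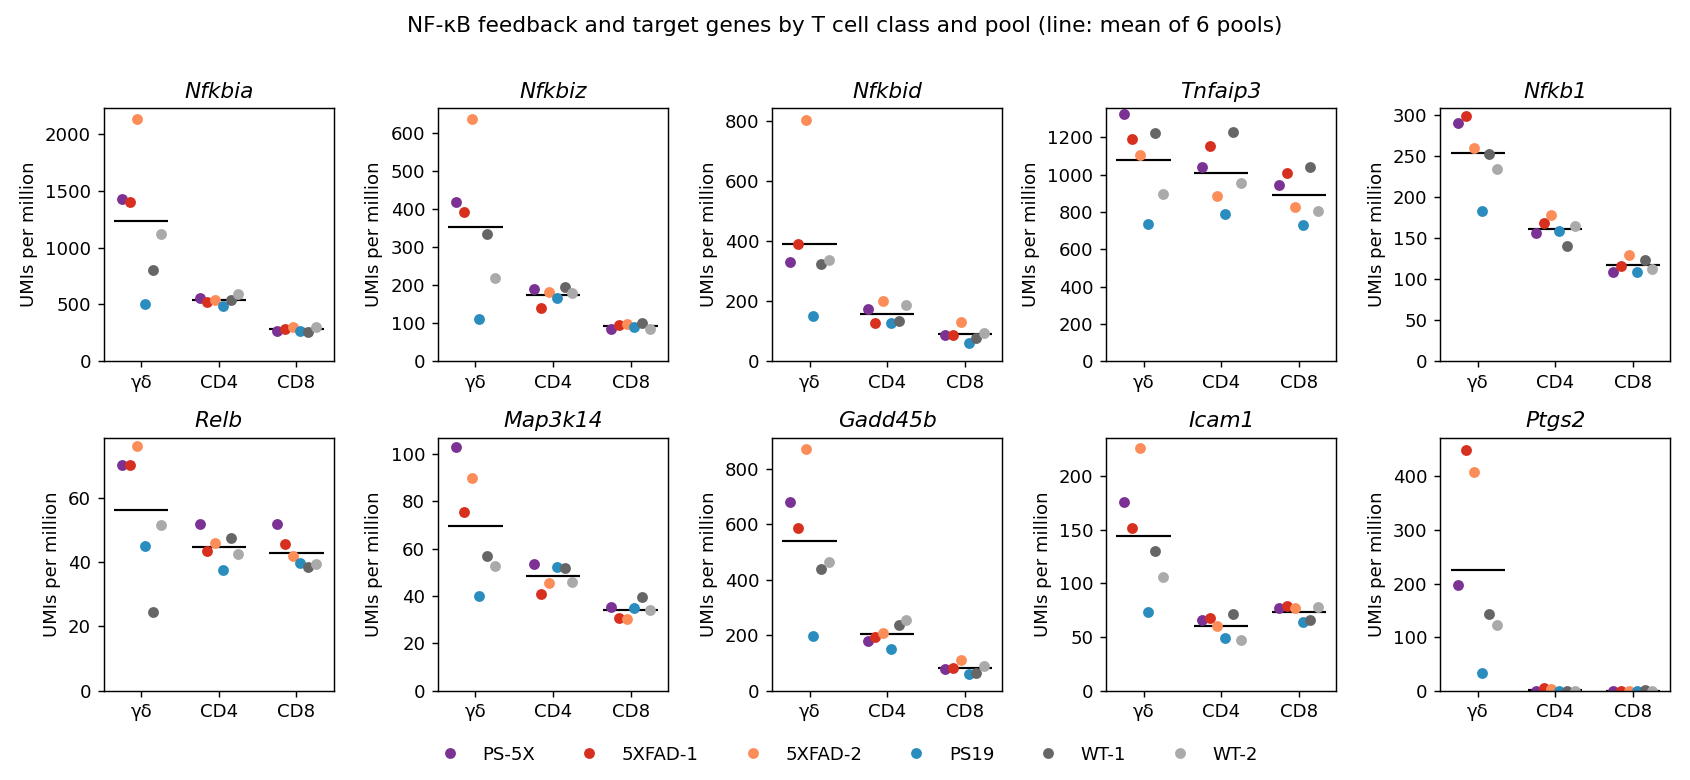
Level of each gene (CPM, linear axes from 0) in γδ, CD4 and CD8 T cells of the 6 pools, one point per pool, with the line at the mean of the 6. Nfkbia ran from 501 to 2132 in γδ and from 259 to 305 in CD8 cells, while Tnfaip3 overlapped between all classes and Ptgs2 was near 0 outside γδ cells.

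Of the inhibitors, Nfkbia had a lowest, median and highest pool of 501, 1260 and 2132 CPM in γδ cells, 487, 541 and 587 CPM in CD4 cells, and 259, 276 and 305 CPM in CD8 cells. Every γδ and every CD4 pool lay above every CD8 pool. The log2 fold over CD8 was 1.90 ± 0.18 (SE) in γδ (edgeR adjusted p = 2.27e-08) and 0.85 ± 0.17 in CD4 (edgeR adjusted p = 0.000748), higher in 6 of 6 pools for each. Nfkbiz gave 110, 363 and 638 CPM in γδ, 139, 180 and 196 CPM in CD4, and 84.8, 93.3 and 101 CPM in CD8. Its folds over CD8 were 1.71 ± 0.21 (edgeR adjusted p = 1.16e-06) in γδ and 0.83 ± 0.20 (edgeR adjusted p = 0.00327) in CD4. The γδ and CD4 pools of Nfkbiz overlapped, since the PS19 γδ sum was below all the CD4 sums.

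Nfkbid gave 151, 333 and 803 CPM in γδ, 125, 153 and 201 CPM in CD4, and 60.0, 86.0 and 130 CPM in CD8. It was 1.89 ± 0.14 higher in γδ (edgeR adjusted p = 1.34e-09) and 0.78 ± 0.14 higher in CD4 (edgeR adjusted p = 0.000246), both on the log2 scale against CD8. Tnfaip3 differed less. It gave 737, 1147 and 1326 CPM in γδ, 787, 999 and 1232 CPM in CD4, and 732, 884 and 1039 CPM in CD8, and these ranges overlapped throughout, although within pools it was higher than in CD8 in 6 of 6 for both classes. The log2 folds over CD8 were 0.09 ± 0.06 in γδ (edgeR adjusted p = 0.253) and 0.08 ± 0.06 in CD4 (edgeR adjusted p = 0.370). With library totals in place of TMM both passed, at 0.27 (edgeR adjusted p = 0.000685) and 0.17 (edgeR adjusted p = 0.0233).

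Among the subunits and NIK, Nfkb1 gave 183, 256 and 298 CPM in γδ, 140, 162 and 177 CPM in CD4, and 108, 115 and 130 CPM in CD8, with no overlap between classes. Its log2 fold over CD8 was 0.95 ± 0.08 in γδ (edgeR adjusted p = 4.22e-09) and 0.38 ± 0.07 in CD4 (edgeR adjusted p = 0.000461). Map3k14 gave 39.9, 66.3 and 103 CPM in γδ, 40.8, 48.7 and 53.5 CPM in CD4, and 30.3, 34.4 and 39.5 CPM in CD8. It was 0.94 ± 0.14 higher in γδ (edgeR adjusted p = 1.93e-05) and 0.42 ± 0.12 higher in CD4 (edgeR adjusted p = 0.0123). Relb gave 24.4, 61.0 and 76.2 CPM in γδ, 37.6, 44.8 and 51.9 CPM in CD4, and 38.7, 40.9 and 51.8 CPM in CD8, overlapping in all. Its γδ log2 fold of 0.30 ± 0.11 (edgeR adjusted p = 0.0318) lost its call without PS-5X, without either 5XFAD pool and without WT-2 (edgeR adjusted p from 0.0504 to 0.190), and its CD4 value was -0.05 ± 0.09 (edgeR adjusted p = 0.753), or 0.04 with library totals.

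Of the other targets, Gadd45b gave 197, 527 and 872 CPM in γδ, 150, 202 and 254 CPM in CD4, and 61.3, 79.3 and 109 CPM in CD8. It had log2 folds over CD8 of 2.54 ± 0.16 in γδ (edgeR adjusted p = 8.91e-11) and 1.26 ± 0.16 in CD4 (edgeR adjusted p = 4.83e-06). Icam1 was the member that was higher in γδ and lower in CD4: 73.5, 141 and 226 CPM in γδ, 46.9, 62.8 and 71.0 CPM in CD4, and 63.9, 77.3 and 79.1 CPM in CD8. The log2 fold over CD8 was 0.78 ± 0.13 in γδ (edgeR adjusted p = 7.98e-05) and fell by 0.42 ± 0.13 in CD4 (edgeR adjusted p = 0.0164), where 5 of 6 pools were lower and no call was left without WT-2 (edgeR adjusted p = 0.0851).

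Ptgs2 was a γδ transcript in these samples. It gave 198, 449 and 409 CPM in the γδ sums of PS-5X, 5XFAD-1 and 5XFAD-2, and 32.2, 143 and 123 CPM in those of PS19, WT-1 and WT-2. All 6 γδ sums together held 1223 Ptgs2 UMIs, or 240 CPM with a 95% exact Poisson interval of 227 to 254, which covers counting error only. The CD4 sums held 22 UMIs, 17 of them in 5XFAD-1 and 5 in 5XFAD-2, or 1.30 CPM (0.814 to 1.97), and the CD8 sums 5 UMIs, or 0.0681 CPM (0.0221 to 0.159). The CD8 sum of PS-5X had 0 of 25493271 UMIs, which allows up to 0.118 CPM. No fold or test is given, since 3 of the 6 CD8 sums were at 0 and the gene was below the filter in fits of CD4 or CD8 sums alone.

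The rest of the pathway was read from lists of other NF-κB genes. Of 3 further subunits, Nfkb2, Rel and Rela, 3 were called higher in γδ than in CD8, with log2 folds of 0.65 ± 0.09, 0.43 ± 0.08 and 0.27 ± 0.07, and only Rel, at 0.33 ± 0.07, in CD4. The list of 11 other inhibitors went both ways in γδ, with 4 higher and 3 lower (median -0.10). Zc3h12a, the RNase Regnase-1, rose by 1.30 ± 0.12 and Tax1bp1, a partner of A20, by 0.65 ± 0.06, while the deubiquitinase Otulin fell by 0.74 ± 0.08. Of 11 receptors measured, 6 were higher and 2 lower in γδ, among them the interleukin-1 receptor Il1r1, Tnfrsf25, the receptor DR3 (3.39 ± 0.15), and Il18r1 (1.91 ± 0.10). In CD4, 6 of 11 receptors were higher and 1 lower, led by Tnfrsf4, which encodes OX40, at 4.78 ± 0.17.

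Of 8 ligands, 6 were higher and 1 lower in γδ, with Tnfsf11, the ligand RANKL, at 3.96 ± 0.16, Tnfsf14 at 2.10 ± 0.12 and Tnf at 1.84 ± 0.17 over CD8. In CD4, 5 of 8 were higher and none lower, led by Cd40lg, the CD40 ligand, at 4.29 ± 0.12. The 24 adaptors and kinases were not shifted one way in γδ: 4 were higher and 7 lower (median -0.10), with the kinase gene Prkcq, which links the T cell receptor to NF-κB, lower by -1.18 ± 0.09 and its partner Malt1 by -1.05 ± 0.10. Of 19 other targets, 10 were higher and 6 lower in γδ, with Il2ra, the interleukin-2 receptor chain, at 5.21 ± 0.09. The copies Bcl2a1a and Bcl2a1d were also higher, but near-identical Bcl2a1 genes can split reads and are uncertain. The list of immediate early, dissociation and heat shock genes was higher as well, in 16 of 20 genes in γδ (median 1.21) and 12 of 20 in CD4 (median 0.44), and its part in the members' differences was not tested.

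Within γδ cells 1 of the 10 genes, Ptgs2, was called higher in the amyloid pools. The 3 amyloid pools all lay above the other 3 for 8 of the 10 genes, where 4.65% of the 8433 genes tested did so and 5.06% lay all below. Of all genes, 0.0711% were called (6 genes), 0.0593% higher and 0.0119% lower. Amyloid was fitted with tau as second term, on 6 sums with 3 residual degrees of freedom. The median member was 0.94 higher on the log2 scale, with a median of 0.00 over all genes. The number of members called depended on single pools and ran from 1 to 6 over the 6 fits without 1 pool. It was 6 without 5XFAD-1, 3 without 5XFAD-2, 5 without WT-1 and 2 without WT-2. Over all genes, these fits called 16, 25, 27 and 6 higher and 7, 31, 20 and 2 lower, in that order. The lowest member count was among the fits without PS-5X and without PS19. With either of these left out, the tau term fits the other exactly. Both fits then set 5XFAD-1 and 5XFAD-2 against WT-1 and WT-2, so they are not separate checks of the amyloid difference. In such sums of sorted cells, fewer cells of a kind and less RNA per cell cannot be told apart.

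**Figure D2:**
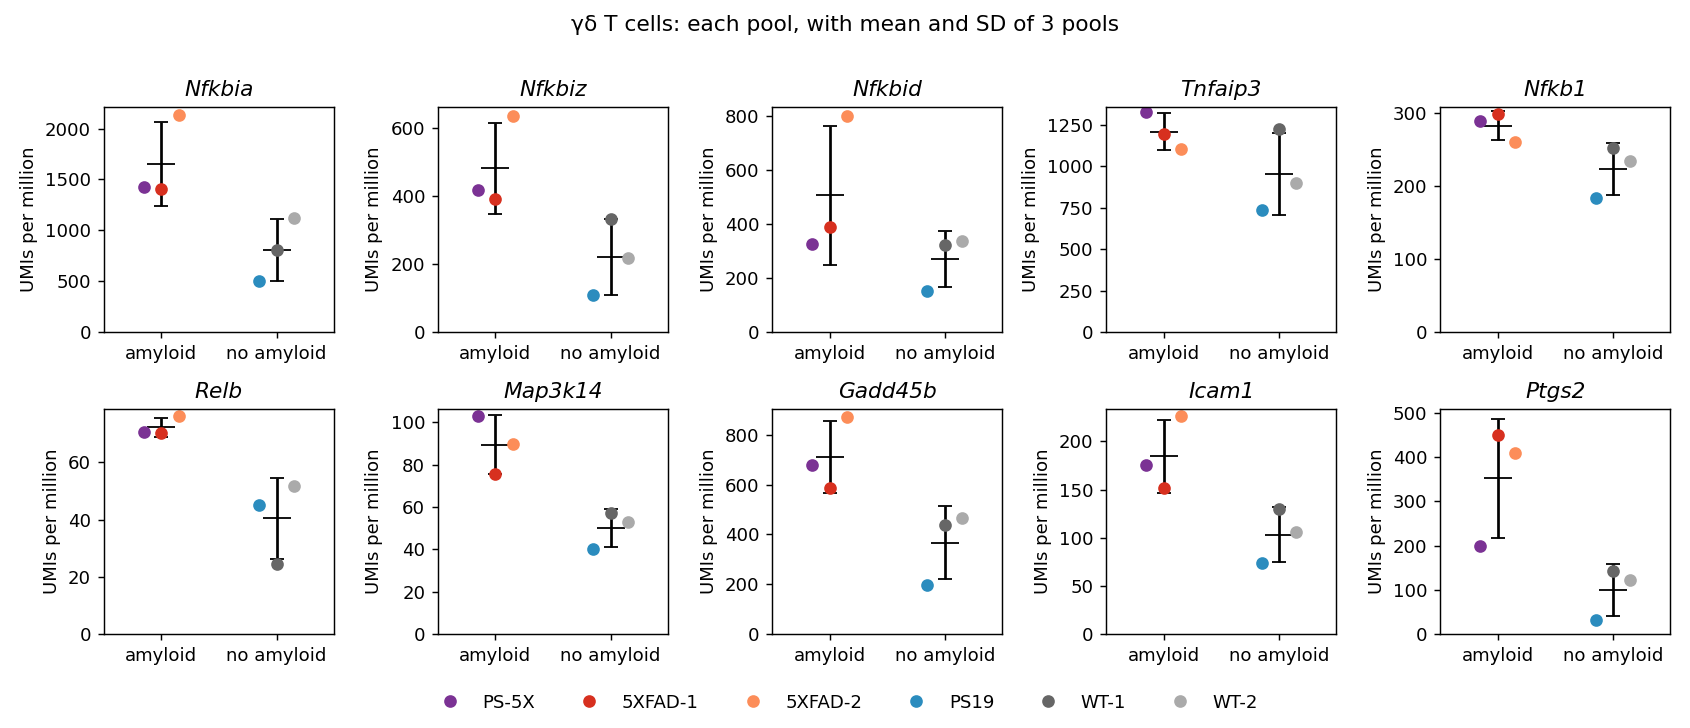
Level of each gene (CPM, linear axes from 0) in γδ T cells, one point per pool, amyloid pools left and pools without amyloid right, with the mean and SD of 3 pools. Nfkbia lay at 1405 to 2132 in the amyloid pools and at 501 to 1116 in the others, and PS19 was the lowest of the 6 pools for 9 of the genes, all but Relb.

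Ptgs2 averaged 352 ± 135 CPM in the amyloid pools and 99.1 ± 58.8 CPM in the pools without amyloid (SD, n = 3 each). The log2 fold was 1.98 ± 0.18 (edgeR adjusted p = 0.000149). It stayed called when each pool was left out in turn, at a log2 fold of 1.76 to 2.07, with 2.07 without WT-1. Within the sequencing run shared by 4 pools the log2 ratio of means was 1.89, and within the separate run of 5XFAD-2 and WT-2 it was 1.74. When the γδ class was the cluster led by Cd163l1, made without the 10 genes, the fold was 1.19 (edgeR adjusted p = 0.00944), and the pools overlapped by a margin, 207 to 463 CPM in the amyloid pools and 129 to 211 CPM in the others.

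Nfkbia gave 1427, 1405 and 2132 CPM in PS-5X, 5XFAD-1 and 5XFAD-2, and 501, 802 and 1116 CPM in PS19, WT-1 and WT-2. The groups did not overlap. The log2 fold was 1.09 ± 0.20, just outside the threshold (edgeR adjusted p = 0.0516). Nfkbiz gave 420, 392 and 638 CPM in the amyloid pools and 110, 334 and 218 CPM in PS19, WT-1 and WT-2, also with no overlap, at 1.30 ± 0.23 (edgeR adjusted p = 0.0516). Both genes fell on either side of the threshold as settings changed. Without WT-1 both were called, at 1.02 (edgeR adjusted p = 0.0260) and 1.52 (edgeR adjusted p = 0.00161). Both were also called without 5XFAD-1 or without 5XFAD-2, and Nfkbia alone without WT-2 (1.33, edgeR adjusted p = 0.0384). Without PS-5X or PS19 neither was called (edgeR adjusted p = 0.572 and 0.524 for each gene). With the sequencing run as replicate block Nfkbia was called (1.10, edgeR adjusted p = 0.00158) and Nfkbiz was not (1.30, edgeR adjusted p = 0.0517). By run, the log2 ratios of means were 1.12 and 0.93 for Nfkbia and 0.87 and 1.55 for Nfkbiz in the common and the separate run.

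Gadd45b averaged 713 ± 145 CPM in the amyloid pools and 367 ± 148 CPM in the others, at a log2 fold of 1.06 ± 0.21 (edgeR adjusted p = 0.0748). Icam1 averaged 184 ± 38.3 CPM in the amyloid pools and 103 ± 28.5 CPM in the others, at 0.92 ± 0.20 (edgeR adjusted p = 0.126). Map3k14 averaged 89.5 ± 13.7 CPM in the amyloid pools and 49.9 ± 8.90 CPM in the others, at 0.90 ± 0.20 (edgeR adjusted p = 0.155). All 3 had separate groups and missed the threshold. With the sequencing run as replicate block Gadd45b was called (1.07, edgeR adjusted p = 0.0487), and Icam1 (edgeR adjusted p = 0.0634) and Map3k14 (edgeR adjusted p = 0.106) were not. Without WT-1, Gadd45b (1.11) and Icam1 (1.01) were called (edgeR adjusted p = 0.0260 for each), and Map3k14 was not (0.95, edgeR adjusted p = 0.0583). None of the 3 was called in every fit without 1 pool. The difference was uneven between pairs of pools. For Gadd45b, Icam1 and Map3k14 the log2 ratio was 1.79, 1.26 and 1.37 for PS-5X over PS19. It was 0.42, 0.21 and 0.41 for 5XFAD-1 over WT-1, and 0.91, 1.10 and 0.76 for 5XFAD-2 over WT-2. Nfkbid gave 328, 389 and 803 CPM in the amyloid pools and 151, 322 and 337 CPM in the others, so that PS-5X lay below WT-2 and 5XFAD-2 stood high, at 0.96 ± 0.22 (edgeR adjusted p = 0.173), and at 0.95 without WT-1 (edgeR adjusted p = 0.118). Relb was at 0.70 ± 0.21, Nfkb1 at 0.38 ± 0.14 and Tnfaip3 at 0.39 ± 0.16, none of them called (edgeR adjusted p from 0.429 to 0.781).

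In the γδ cluster made without the 10 genes, 7 of the 10 kept separate groups and 5 were called, Ptgs2, Nfkbia, Nfkbiz, Gadd45b and Icam1. Over all genes, 12 were called higher and 0 lower there. The share of all genes with separate groups was not computed for this cluster. There Nfkbia ran from 1807 to 2689 CPM in the amyloid pools and from 707 to 1386 CPM in the others. Other values moved with the γδ groups. The 20 immediate early, dissociation and heat shock genes, all 20 detected, summed to 17478 to 27797 CPM in the amyloid γδ sums and to 11683 to 20346 CPM in the others, and 3 of them, Fos, Egr1 and Jun, were called higher. The 6 NK cell genes summed to 92.7 to 228 CPM in the amyloid pools and to 114 to 474 CPM in the others, with Klra8 and Klra4 at 0 UMIs in every γδ sum. The 474 CPM was PS19, the pool with the smallest share of its γδ class in the Cd163l1 cluster, 51.5%. It was also the lowest pool for most members. The part of these lists and of this cell mix in the members' differences was not tested. Of the other NF-κB lists, no gene was called in γδ, with the chemokine gene Ccl4 at -2.22 ± 0.41 (edgeR adjusted p = 0.0516), Tnf at 1.08 ± 0.27 (edgeR adjusted p = 0.205) and the growth factor gene Csf2 at 1.53 ± 0.30 (edgeR adjusted p = 0.0667).

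In CD8 and CD4 cells no member was called for amyloid. Of 9 genes tested in each class, Ptgs2 being below the filter, 0 passed in CD8, where 0.00853% of 11730 genes were called, and 0 in CD4, where 0.00% of 10283 were. At an unadjusted p under 0.05, edgeR had 2 members in CD8, Nfkbid and Relb, and 0 in CD4, and DESeq2 called 0 in either. Over all genes, 1131 of 11730 in CD8 and 459 of 10283 in CD4 had an unadjusted edgeR p under 0.05. In γδ, 9 of the 9 members other than Ptgs2 had such a p, and 510 of 8433 genes did. The members were picked with their levels known, so this count is a description. Nfkbia averaged 284 ± 20.1 CPM in amyloid CD8 sums and 277 ± 24.0 CPM in the others (SD, n = 3 each), at a log2 fold of 0.02 ± 0.09. In CD4 it averaged 541 ± 15.8 CPM in the amyloid pools and 538 ± 50.2 CPM in the others, at 0.01 ± 0.11. The widest CD8 values were Nfkbid at 0.39 ± 0.16 (edgeR adjusted p = 0.494) and Gadd45b at 0.32 ± 0.16 (edgeR adjusted p = 0.561). Relb was the only member whose amyloid CD8 pools all lay above the others, as 7.85% of genes did, with 5.78% all below. In CD4 no member's groups were separate, where 5.07% of genes lay all above and 4.39% all below.

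**Figure D3:**
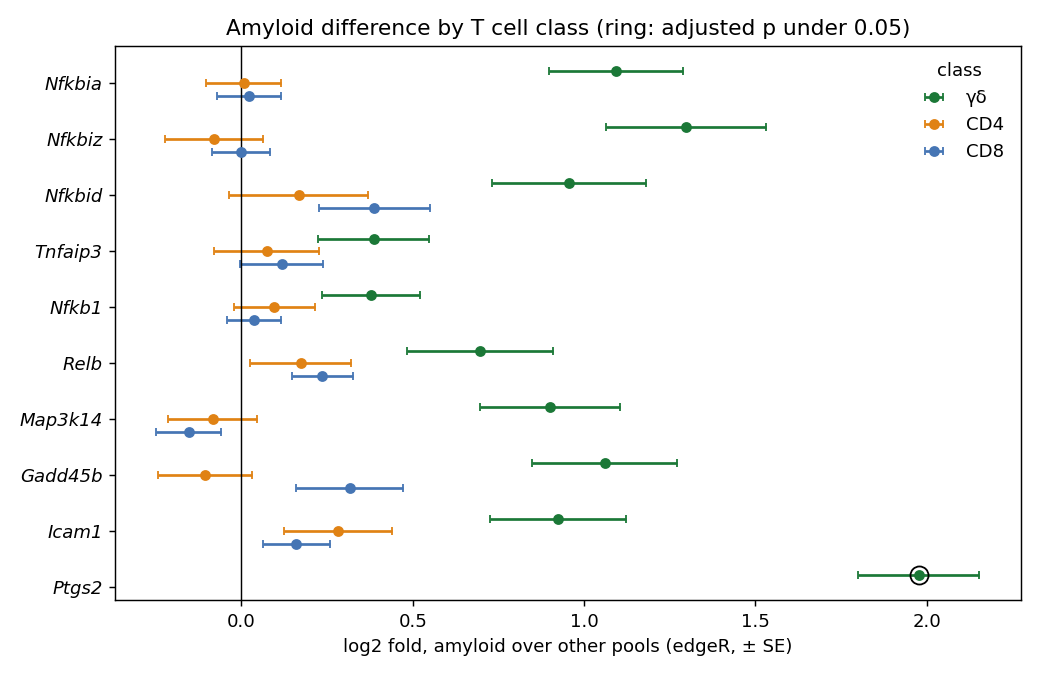
Log2 fold of each gene in amyloid pools over pools without amyloid (edgeR, tau as second term, bars ± SE), in γδ, CD4 and CD8 T cells; a ring marks an adjusted p under 0.05. In γδ the folds ran from 0.38 to 1.98 and Ptgs2 is ringed, in CD4 and CD8 the 9 tested genes lay between -0.15 and 0.39.

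The amyloid difference was tested between classes. For γδ against CD8, a test added after the levels were seen, 3 members passed over 18 sums, against 0.0885% of 11304 genes called, 0.0796% higher and 0.00885% lower. These were Nfkbia (1.09 ± 0.16, edgeR adjusted p = 0.00705), Nfkbiz (1.32 ± 0.21, edgeR adjusted p = 0.0122) and Map3k14 (1.06 ± 0.18, edgeR adjusted p = 0.0213). Without WT-1, without PS19 or without PS-5X no member passed, with Nfkbia at 1.07, 0.86 and 0.86, and without WT-2 only 1 did. Ptgs2 could not be read here, since its CD8 sums were near 0. For CD4 against CD8 no member passed, against 0.0177% of genes, and of the 9 members other than Ptgs2, which could not be read there either, 1 had an unadjusted p under 0.05, Gadd45b. Of all 11304 genes, 365 did. DESeq2 called 0.

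Tau gave 1 call. Ptgs2 was lower in tau γδ sums, with PS-5X at 198 CPM and PS19 at 32.2 CPM, against 449, 409, 143 and 123 CPM in 5XFAD-1, 5XFAD-2, WT-1 and WT-2. The log2 fold was -1.36 ± 0.19 (edgeR adjusted p = 0.00746), and 0.0949% of genes were called for tau in γδ, 0.0830% lower and 0.0119% higher. Without WT-1 the fold was -1.32 (edgeR adjusted p = 0.00146). The call was lost without PS19 (-1.11, edgeR adjusted p = 0.0506) and in the γδ cluster made without the 10 genes (-0.87, edgeR adjusted p = 0.0943). In that cluster Ptgs2 in PS19, WT-1 and WT-2 ran from 129 to 211 CPM, so PS19 lay above its 32.2 CPM of the γδ class. The low PS19 value thus depended on how γδ cells were defined. In the γδ class Nfkbid followed at -0.96 ± 0.24 (edgeR adjusted p = 0.216). Of the 20 immediate early, dissociation and heat shock genes 4 were called lower, Hspa1b, Hspa1a and Hsph1 among them. Their part was not tested. PS19 also had the highest sum of NK cell genes among the γδ sums, 474 CPM, and the part of that was not tested either. No member was called for tau in CD8 or CD4, where 0.00853% and 0.00972% of genes were, and at an unadjusted p under 0.05 there were 0 members in CD8 and 1, Gadd45b, in CD4, with 0 called by DESeq2. Over all genes, 624 of 11730 in CD8 and 498 of 10283 in CD4 had an unadjusted edgeR p under 0.05. In γδ, 4 of the 9 members other than Ptgs2 had such a p for tau, and 587 of 8433 genes did.

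The members also varied between states of a class. Clusters made without the 10 genes are used for description only, as means over pools. Tnfaip3 spanned the widest range among CD8 cells. It was at 1946 ± 201 CPM in a cluster led by Pdcd1, Rgs16 and Lag3, genes of chronically stimulated T cells (SD, n = 6 here and below). In a naive-like cluster of 661 cells, led by Igfbp4, Dapl1 and Ccr9, it was at 125 ± 17.6 CPM. In the larger naive-like cluster of 1335 cells, led by Ifngr2, Igfbp4 and Ccr7, it was at 612 ± 57.3 CPM. Nfkbia was highest among CD8 clusters in one led by Gzma, Cx3cr1 and S1pr5, at 564 ± 137 CPM, and stood at 276 ± 82.9 CPM in the Pdcd1 cluster. In CD4 cells Nfkbia reached 1148 ± 24.4 CPM (n = 4 pools) in the cluster led by Foxp3, the regulator of regulatory T cells, and 806 ± 98.8 CPM in one led by Cxcr6, Ifng and Il17a, and it was at 208 ± 34.7 CPM in the naive-like CD4 cluster (n = 6 each).

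**Figure D4:**
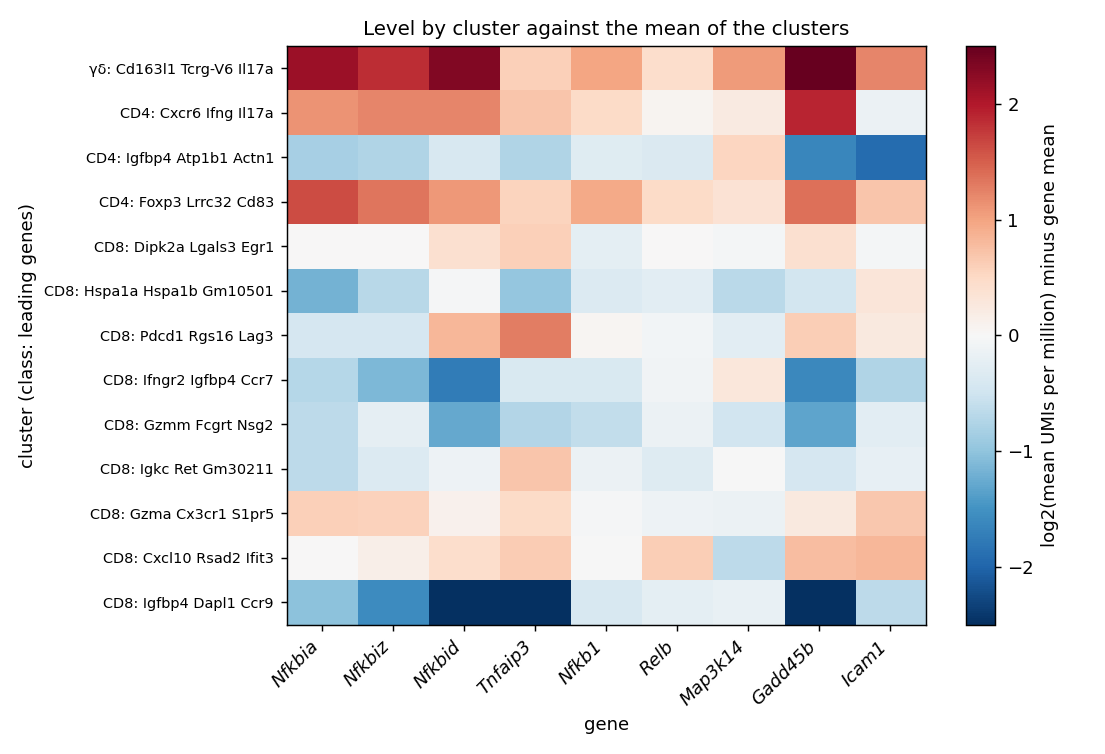
Level of 9 genes in the clusters of γδ, CD4 and CD8 T cells, as log2 of the mean CPM over pools minus the gene's mean over the clusters (red higher, blue lower; Ptgs2 is left out, being near 0 outside the γδ cluster). Nfkbid, Tnfaip3 and Gadd45b were lowest in the smaller naive-like CD8 cluster, led by Igfbp4, Dapl1 and Ccr9. Tnfaip3 was highest in the cluster led by Pdcd1, at 1946.

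CD8 cells of expanded clones, a clonotype seen in 2 or more cells of a pool, were set against singletons of the same pool. The members split: 3 were higher and 2 lower in expanded cells, of 9 tested, against 16.3% of 10915 genes called higher, 14.3% lower and 30.5% in all. Their median log2 fold was 0.01, with 0.00 over all genes. Tnfaip3 gave 1112, 1167 and 1547 CPM (lowest, median and highest pool) in expanded cells and 638, 703 and 929 CPM in singletons, with no overlap. It was 0.56 ± 0.04 higher on the log2 scale (edgeR adjusted p = 2.10e-08), in 6 of 6 pools. Nfkbid gave 104, 121 and 152 CPM in expanded cells and 49.2, 67.4 and 119 CPM in singletons, at 0.63 ± 0.08 (edgeR adjusted p = 1.65e-05), and Gadd45b rose by 0.63 ± 0.08 (edgeR adjusted p = 1.16e-05), each in 6 of 6 pools. In WT-1, 73 of the 88 expanded cells carried a receptor found also in another pool. So did 358 of 587 in 5XFAD-1, 121 of 336 in PS19 and 174 of 1819 in PS-5X. All 3 genes were called as well without WT-1, but the shared receptors of the other pools stayed in. Their part was not tested. The list of 10 naive and circulating genes was lower in expanded cells for all 10, with Igfbp4 at -5.76 ± 0.13, the homing receptor gene Ccr7 at -3.66 ± 0.09 and Lef1 at -2.40 ± 0.06. With naive-like clusters left out the 3 members stayed called at smaller log2 folds, Tnfaip3 at 0.43 (edgeR adjusted p = 8.78e-08), Nfkbid at 0.38 (edgeR adjusted p = 0.00424) and Gadd45b at 0.39 (edgeR adjusted p = 0.00218). In that setting Nfkbid and Gadd45b were no longer higher in expanded cells of 5XFAD-2. Nfkbid was at 144 CPM in its expanded cells and 158 CPM in its singletons, and Gadd45b at 117 and 119 CPM.

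Nfkbia did not move with them. It gave 239, 276 and 343 CPM in expanded cells and 244, 264 and 315 CPM in singletons, at -0.11 ± 0.08 (edgeR adjusted p = 0.345) and 0.05 with library totals, with 3 pools higher and 3 lower. Nfkbiz (-0.14 ± 0.06, edgeR adjusted p = 0.0742, and 0.02 with library totals), Icam1 (0.20 ± 0.08, edgeR adjusted p = 0.0627) and Nfkb1 (0.01 ± 0.05, edgeR adjusted p = 0.917) were not called. Map3k14 fell by 0.34 ± 0.08 (edgeR adjusted p = 0.00445) and Relb fell by 0.21 ± 0.08 (edgeR adjusted p = 0.0404), and neither held. With naive-like clusters left out, which were 0.00% to 1.79% of expanded and 10.9% to 39.9% of singleton cells, they were at -0.14 (edgeR adjusted p = 0.238) and -0.20 (edgeR adjusted p = 0.0545), and Nfkbiz was called lower at -0.31 (edgeR adjusted p = 0.000827). TMM also moved the log2 folds down by 0.16 against library totals, with which 81.4% of calls were higher in place of 53.2%, Map3k14 and Relb were not called, and Icam1 (0.36) and Nfkb1 (0.17) were.

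**Figure D5:**
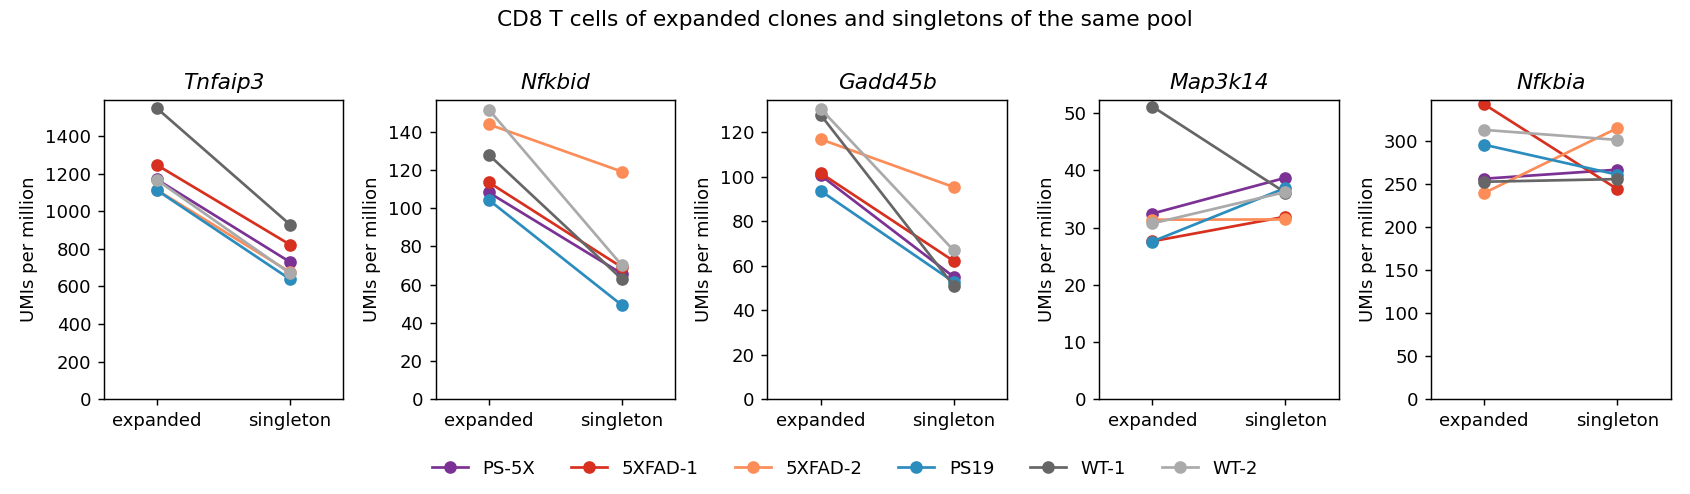
Level of 5 genes (CPM, linear axes from 0) in CD8 T cells of expanded clones (left) and singletons (right), lines joining the 2 sums of a pool. Tnfaip3, Nfkbid and Gadd45b were higher in expanded cells of all 6 pools, while Nfkbia was higher in 3 and lower in 3.

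Among the other NF-κB genes, expanded cells had 5 of 9 ligands higher and 1 lower, with Tnf at 1.01 ± 0.08 and Tnfsf8, the CD30 ligand, at -1.07 ± 0.10. Of 17 other targets, 9 were higher and 2 lower, led by the chemokine genes Ccl3 (1.94 ± 0.11) and Ccl4 (1.73 ± 0.13). Of 23 adaptors and kinases, 3 were higher and 7 lower, with Ikbke at -1.11 ± 0.10 and Ikbkb, the kinase IKKβ, at -0.45 ± 0.05. The 3 further subunits were not called. The T cell receptor response list had 9 of 12 genes higher, with Nr4a2 at 1.22 ± 0.07 and Irf4 at 1.08 ± 0.06, and 11 of 20 immediate early, dissociation and heat shock genes were higher and 2 lower, whose part was not tested.

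The genes most like each member were taken over the 18 class sums, as Pearson's r of log2(CPM + 1) after the mean of each class was removed, among 6123 genes of 20 CPM or more. The sums share pools, depth and run, so these r are descriptions. Nfkbiz was most like Nr4a1 (0.93) and Zfp36 (0.92), Nfkbid like Jund (0.91), and Nfkbia like Col4a3bp (0.91) and Jund (0.88). Tnfaip3 was most like Cd69 (0.91) and Bhlhe40 (0.89), and Gadd45b like Zfp652 (0.91). The 36 pairs among 9 members ran from 0.21 to 0.91.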

How the data were processed

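The authors deposited filtered matrices of UMI counts per gene and cell and tables of receptor contigs, made with Cell Ranger 6.0.1 on GRCm38 (mm10), per the submitters' processing notes. The values are raw counts, with no normalization, and no per-sample column was left unused. Cells below 500 genes or above 10% mitochondrial UMIs were dropped, and doublets were removed at a rate that grows with the number of barcodes (scanpy 1.11.5). Classes came from lineage marker UMIs of each cell, a choice made after seeing the data, since clusters (leidenalg 0.10.2, resolution 1, 2000 variable genes, 30 components, 15 neighbours) would use the members themselves. The naive-like cells and the states described were taken from clusters made without the 10 genes. Each class of each pool was summed, and the sums went into edgeR 4.0.16 (R 4.3.3, limma 3.58.1), with TMM scaling, the quasi-likelihood test and Benjamini-Hochberg adjustment over all genes. DESeq2 1.42.0 was an alternative, and the fits were tested on simulated counts.

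The members and lists were chosen with earlier results of these data known. Named genes are the 10 members, the genes of smallest p in each list (up to 3), and the genes most like a member. The labels give 5XFAD-2 and WT-2 a sequencing run of their own, so that replicate numbers pair these samples, and deviations of same-numbered samples correlated at 0.22 in CD8, 0.30 in CD4 and 0.22 in γδ sums. Nothing ties pools to single animals. The p-values of amyloid and tau within a class measure the spread between pools. Those of fits with the pool as block measure how differences within a pool vary from pool to pool. Alternatives were other scalings, gene filters, doublets kept, classes from clusters, WT-1 cells with receptors of other pools left out, the replicate block, and each pool left out.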

Additional observations from a re-analysis of the deposited data

Results flagged for a closer look

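Nfkb1 had a CD4 minus CD8 log2 ratio of 0.18 in WT-1, far from the 0.45 to 0.55 of the other 5 pools. WT-1 was the smallest pool, with 986569 CD4 UMIs, and chance flags about 1 in 20 such groups.

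The amyloid difference was larger in γδ than in CD8 sums by a test of the difference itself for Nfkbia (1.09 on the log2 scale), Nfkbiz (1.32) and Map3k14 (1.06). The test was added after the levels were seen, and each call depended on single pools.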

How the results depend on the processing

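Of 1609 member folds under the alternatives, 113 had the other sign than the reported fold, and in 0 of these was the gene called under either setting. Scaling by library totals turned Relb in CD4 against CD8 to 0.04, and Nfkbia and Nfkbiz in expanded cells to 0.05 and 0.02. Library totals, classes from clusters and the γδ against CD8 test of the amyloid difference were chosen after seeing the data. The γδ sums of 33 to 227 cells and the 3 residual degrees of freedom limit what can be called there.

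For amyloid in γδ, where 1 member was called, DESeq2 called 4, no gene filter 7, doublets kept 3, clusters made without the 10 genes 5, clusters made with them 5, and the fits without 1 pool 1 to 6. With the sequencing run as replicate block 3 members were called, and 7 with the block and without WT-1. No gene filter gave 1 member for amyloid in CD8 and 1 in CD4. For tau in γδ, with 1 member called, no gene filter gave 4, both cluster settings 0 and the fits without 1 pool 0 to 2. For the amyloid difference of γδ against CD8, with 3 called, no gene filter gave 6 and the fits without 1 pool 0 to 6. Without 1 pool, CD4 against CD8 had 7 to 8 calls and γδ against CD8 8 to 9, Ptgs2 included, and expanded against singleton 5 to 6, while amyloid and tau in CD8 and CD4 and the CD4 against CD8 amyloid difference had 0. The cause of these shifts was not tested.

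Counts over all genes moved by more than 1.5 times in the same comparisons. For amyloid in CD8, 1 gene became 93 with DESeq2, 617 with no gene filter, 38 with WT-1's shared receptors out, 0 with clusters and 0 to 76 without 1 pool. For amyloid in CD4, 0 became 4, 124, 2, 8 (3 with clusters made with the members) and 0 to 1 in that order. For amyloid in γδ, 6 became 15 with DESeq2, 122 with no gene filter, 13 with doublets kept, 12 with clusters and 3 to 56 without 1 pool. For tau, 1 became 23 and 236 in CD8 (0 to 4 without 1 pool), 1 became 14 and 146 in CD4 (0 to 3), and 8 became 16 and 121 in γδ (19 with clusters, 8 to 31), with DESeq2 and no gene filter. The amyloid difference of CD4 against CD8 had 2 genes, 0 with DESeq2, 66 with no gene filter, 4 with doublets kept, 9 and 6 with clusters and 0 to 15 without 1 pool, and that of γδ had 10, 17, 145 and 2 to 57 (16 with clusters made without the members). Expanded against singleton had 3333 genes, and 1076 higher and 1084 lower with naive-like clusters left out. The replicate block called 38 genes for amyloid in CD8, 6 in CD4 and 15 in γδ, and 2, 67 and 15 for tau; with WT-1 left out too, it called 32, 76, 66, 0, 232 and 21.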
